A study of Mus musculus with 30 samples.

Results

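Platelet RNA libraries of mice differed in how much of their sequence came from hemoglobin, and the 3 libraries with the least were set against the 6 with the most. The 9 libraries were chosen by a measured value, the share of raw counts on the 4 adult globin genes Hba-a1, Hba-a2, Hbb-bs and Hbb-bt, among 15 platelet libraries in a series of 30. Libraries under 10% are called hemoglobin-poor, or poor, libraries over 20% hemoglobin-rich, or rich, and the 6 libraries between were left out of the comparison. Because the share sorted the libraries, the difference in the globin genes themselves is a description and not a finding.

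The study asked whether platelet RNA changes before a tumor can be seen. Female C57BL/6 mice were injected under the skin with Hank's balanced salt solution (C group), with 2000 cells of B16F10, an established mouse melanoma line (S group), or with 100000 B16F10 cells (O group), and blood was taken on day 14. Platelets were spun out of the blood, their poly-A RNA was sequenced, and every library pooled RNA of several mice, so that n counts pools. Peripheral blood mononuclear cells (PBMCs) of the same groups were sequenced as another 15 libraries. The poor set held C2, O2 and O4, where a letter is the group and a number the replicate in the labels, and the rich set held C1, C4, C5, S2, O1 and O3. Neither set is a group of the study. The poor libraries pooled 5, 4 and 3 mice and the rich libraries 10, 10, 10, 10, 3 and 5. The labels of the platelet libraries conflict, since 1 field calls them PBMC and the titles call them platelet, and the platelet markers Ppbp, Pf4 and Itga2b stood at 3364 CPM or more in all 9 (CPM is explained below).

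Platelets carry no nucleus and hold RNA from the megakaryocytes that shed them. Reticulocytes are young red cells that have lost their nucleus but still hold RNA, most of it globin RNA together with RNA for heme synthesis, for the membrane skeleton and for the clearance of organelles, and they can be carried over when platelets are prepared from blood. Each adult globin chain is made from a pair of gene copies whose sequences are nearly the same. The coding sequences of Hba-a1 and Hba-a2, read from GENCODE transcripts, are 429 bases long and differ at 1 base, and those of Hbb-bs and Hbb-bt are 444 bases long and also differ at 1 base. The windows around those bases are shown because reads elsewhere in the coding sequence fit both copies, so that counts cannot be divided between copies with certainty, and the libraries were sorted by the sum of the 4 genes. Capitals mark the differing base.
Hba-a1, coding bases 351 to 410: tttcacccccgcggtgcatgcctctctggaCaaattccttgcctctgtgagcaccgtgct
Hba-a2, coding bases 351 to 410: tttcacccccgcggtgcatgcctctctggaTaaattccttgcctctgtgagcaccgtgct
Hbb-bs, coding bases 385 to 444: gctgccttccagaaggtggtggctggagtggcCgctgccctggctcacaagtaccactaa
Hbb-bt, coding bases 385 to 444: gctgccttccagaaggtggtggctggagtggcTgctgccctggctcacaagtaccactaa

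The globin share was 4.02% in O2, 4.29% in O4 and 5.29% in C2. It was 21.9% in O3, 22.1% in S2, 22.3% in C1, 23.7% in C4, 27.6% in C5 and 39.0% in O1. The libraries between ranged from 11.6% to 19.8%, so the nearest library outside the poor set stood at 11.6% (S4) and the nearest outside the rich set at 19.8% (C3). With total counts from 12259036 to 25360080 in the 9 libraries, the 95% Wilson intervals of these shares, which cover counting error only, were narrower than 0.1 percentage points. The counts were assigned mainly to Hba-a1, which took from 2.81% to 3.79% of the counts in the poor set and from 14.8% to 27.6% in the rich set, while Hbb-bs took from 0.715% to 1.05% and from 3.80% to 7.16%. Hba-a2 and Hbb-bt took less than these in every library, and the split within each pair is uncertain.

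**Figure D1:**
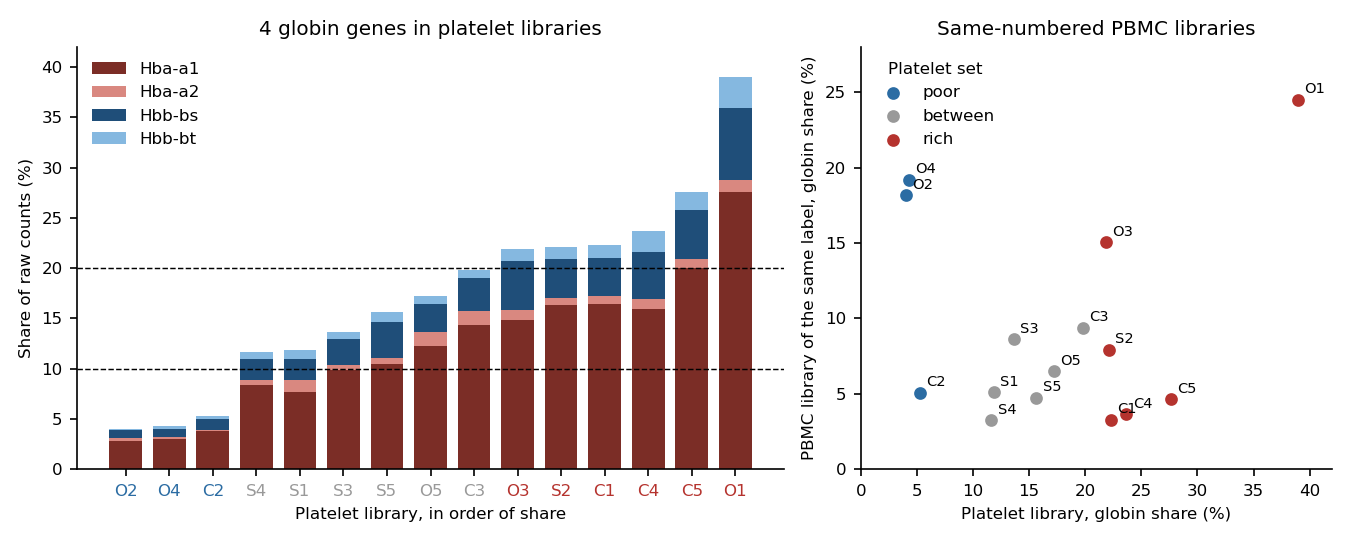
Left, share of raw counts (%) on each of the 4 globin genes in 15 platelet libraries in order of their sum, with dashed lines at 10% and 20%. Right, the summed share in each platelet library against the PBMC library of the same label (both in %, 1 point a pair). O2 and O4 sit at 4.02% and 4.29% in platelets and at 18.2% and 19.2% in PBMCs.

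O1 stood apart from the other rich libraries. It had the fewest counts outside globin (8202021) and the fewest genes with a count (16681) of the 15 platelet libraries. Levels are given here as CPM, counts scaled to a common library size after the 4 globin genes were taken out and with TMM factors over the 9 libraries, and they compare libraries for 1 gene, not genes with each other. Slc4a1, the anion exchanger of the red cell membrane, stood at 7441 CPM in O1 and from 281 to 1013 CPM in the other rich libraries. Mki67, a marker of dividing cells, stood at 750 CPM in O1 and from 10.5 to 20.2 CPM in the others. S100a8, an abundant neutrophil protein, stood at 1400 CPM in O1 and from 61.6 to 175 CPM in the others. The counts over all genes and the medians of the lists are therefore given with and without O1. Counts within lists at an unadjusted p or without overlap are those with O1.

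Over all other genes, the poor libraries differed from the rich ones mainly by genes that were lower. Of 13309 genes that passed the filter on low counts, 663 (4.98%) were lower in all 3 poor libraries than in any rich library and 116 (0.872%) were higher in all 3 (879 and 219 without O1). In edgeR's quasi-likelihood test 1040 genes (7.81%) were lower and 184 (1.38%) higher at an unadjusted p under 0.05 (1204 and 486 without O1). After Benjamini-Hochberg adjustment over all 13309 genes, 3 (0.0225%) were lower and 0 (0%) higher. Without O1, 234 of 13725 genes (1.70%) were lower and 6 (0.0437%) higher at an adjusted p under 0.05, and the 3 genes were among them. Of the 6 higher, 3 (Gstt1, Prrt4 and Gm6093, named after their values were seen) were high in O4 alone of the poor libraries, and their sets overlapped. Leaving out any of the other 8 libraries gave 0 calls, and so did the study's group or the replicate number as a covariate. DESeq2 called 383 genes lower and 16 higher. The libraries were sorted by a value measured in them, so these p-values set a difference against the spread of libraries inside the sets and test no condition of the study. In pools of whole preparations, fewer cells of a type and less RNA per cell cannot be told apart.

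**Figure D2:**
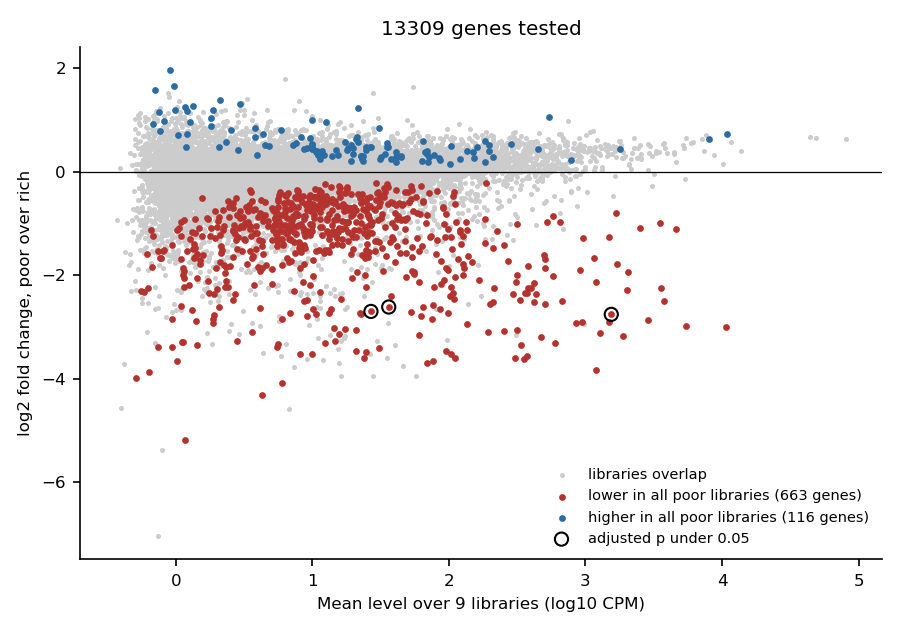
The log2 fold change of 13309 genes, poor over rich, against their mean level over 9 libraries (log10 CPM). Red points are the 663 genes lower in all 3 poor libraries, blue points the 116 genes higher in all 3, grey points the rest, and circles the 3 genes with an adjusted p under 0.05, all 3 of them lower.

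The 3 genes were Fam220a, Gm10371 and Hbq1a. Fam220a (chromosome 5, 143548708 to 143564531, plus strand, GRCm38) stood at 343, 315 and 299 CPM in C2, O2 and O4. In the rich libraries it ranged from 1483 to 3392 CPM, with the lowest level in O3 and the highest in O1. Its log2 fold change was -2.76 (SE 0.34, adjusted p = 0.0340), or 6.76 times lower in the poor set, and -2.58 without O1 (adjusted p = 0.00103). Gm10371, an antisense transcript on chromosome 14 (47097679 to 47116161, minus strand), ranged from 6.14 to 10.2 CPM in the poor and from 35.6 to 68.7 CPM in the rich libraries, a log2 fold change of -2.62 (SE 0.29, adjusted p = 0.0268). How the counting treated strand is not given in the sources used here, so its reads cannot be told from those of genes on the other strand. Hbq1a, a theta globin gene on chromosome 11, ranged from 3.80 to 7.78 CPM and from 27.2 to 61.7 CPM. It belongs to the globin family that sorted the libraries, it may share reads with its copy Hbq1b, and nothing is read from its test.

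Many genes of red cells were lower in the poor set, and no test is read from them, since they are known to be made by the cells that make globin. Alas2, the first enzyme of heme synthesis in red cells, stood at 1853, 1769 and 2013 CPM in C2, O2 and O4. In the rich libraries it stood at 16672, 10444 and 11393 CPM in C1, C4 and C5, at 33986 and 8938 CPM in O1 and O3, and at 8711 CPM in S2. The lowest rich library was thus more than 4 times above the highest poor one. The log2 fold change of Alas2 was -3.00 with and -2.58 without O1.

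Of 13 measured genes of heme synthesis and iron import, all 13 had a negative log2 fold change, as did 6712 of the 13309 genes tested, and 4 did not overlap between the sets, beside 4.98% of all genes. Their median log2 fold change was -2.24, beside -0.00 over all genes tested, and it was -0.74 without O1. The largest was that of Tfrc, the transferrin receptor, at -3.96, and it rested on O1, where Tfrc stood at 446 CPM against 5.59 to 14.3 CPM in the other rich libraries. Without O1 it was -0.99. The smallest was that of Steap3, an iron reductase, at -0.28.

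Of 19 genes of the red cell membrane, 15 had a negative log2 fold change and 8 did not overlap, beside 4.98% of all genes. Their median was -3.40, and -1.36 without O1. Slc4a1 stood at 49.1, 98.4 and 215 CPM in C2, O2 and O4 and from 281 to 7441 CPM in the rich set. The sets did not overlap for Slc4a1, whose log2 fold change was -3.83 with and -2.24 without O1. Epb41, the skeletal protein 4.1 and the most abundant gene of the list, had a log2 fold change of -2.50 (-1.57 without O1). Slc14a1, a urea transporter, was at the other end at 0.52 (1.59 without O1).

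Of 18 genes of reticulocyte maturation, all 18 had a negative log2 fold change and 12 did not overlap, beside 4.98% of all genes, with a median of -2.28 (-1.18 without O1). Bpgm, which makes the bisphosphoglycerate that lowers the oxygen affinity of hemoglobin, stood at 970, 993 and 931 CPM in C2, O2 and O4. It stood at 8795, 5967 and 6860 CPM in C1, C4 and C5, at 15616 and 4510 CPM in O1 and O3, and at 4245 CPM in S2. Its log2 fold change was -2.99 with and -2.65 without O1. Trim10, a ubiquitin ligase of maturing red cells, had the lowest value of the list at -3.61 (-2.53 without O1). Cat, the catalase that removes hydrogen peroxide, had the highest at -0.39 (-0.18 without O1). Of the minor globins, Hbq1b stood at -2.13 and the embryonic Hbb-y at 0.15.

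**Figure D3:**
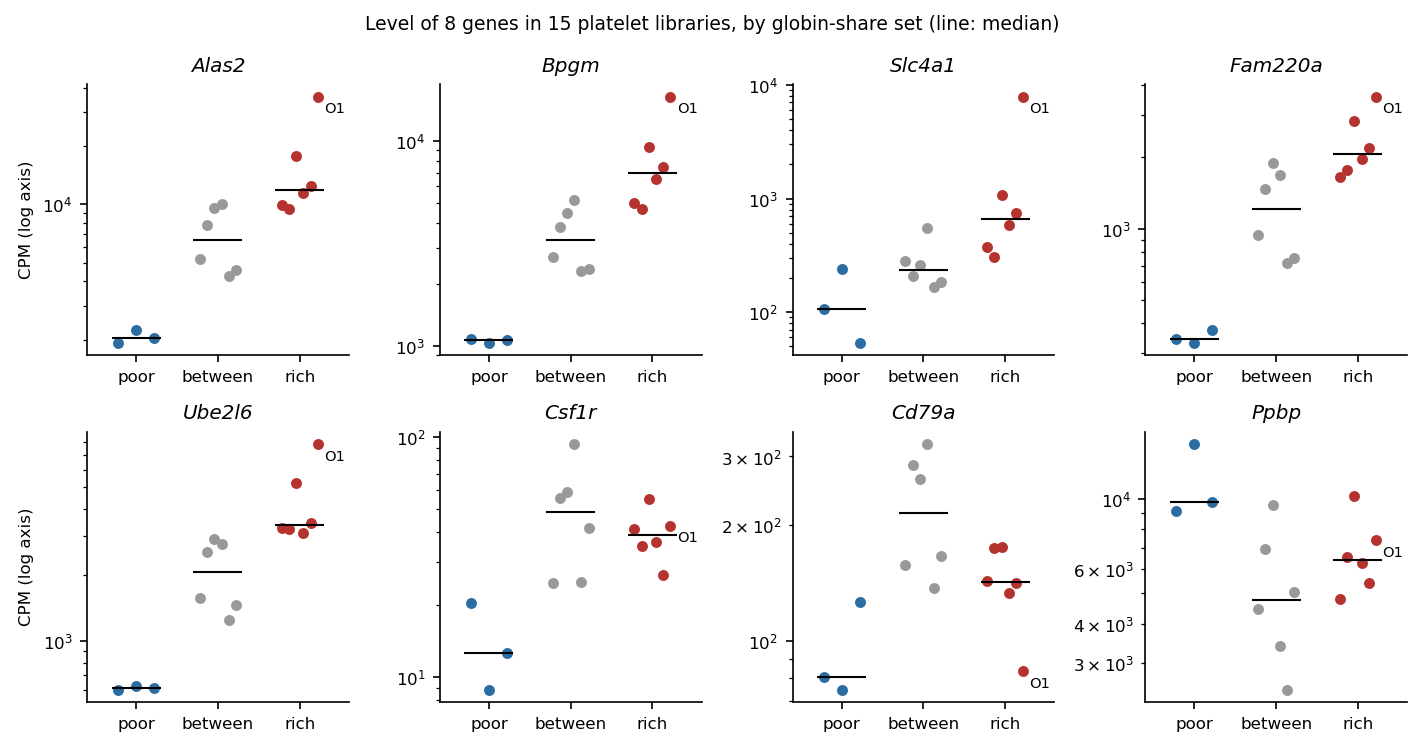
Level (CPM, log axis, TMM over 15 libraries) of 8 genes in 3 poor, 6 between and 6 rich platelet libraries, in order of globin share within each set, with a line at the median and O1 marked. Alas2, Bpgm, Fam220a and Ube2l6 rise from poor to between to rich by their medians, while the medians of Csf1r and Cd79a are highest in the libraries between.

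The promoters of an adult globin gene and of Alas2 are shown for the letters they carry that erythroid factors are known to bind. Hbb-bs is one of the 4 genes that sorted the libraries, and its level was part of that choice. Both were read from RefSeq promoters of GRCm38.p6 and end at the base before the start of the gene, and the capitals mark the motif matched on either strand. In the 250 bases before the start, 9.99% of 32851 promoters held AGATAA on either strand, which factors of the Gata family bind, and 3.20% held CCACACCC, which Krüppel-like factors bind. The motifs do not overlap. Hbb-bs holds CCACACCC at 93 bases before its start and AGATAA further upstream, outside the stretch shown, Alas2 holds AGATAA on the other strand at 86 bases, and Hba-a1 and Bpgm hold neither in this window. A match is a description of letters and not of binding.
Hbb-bs, chr7:103827929-103828078, minus strand: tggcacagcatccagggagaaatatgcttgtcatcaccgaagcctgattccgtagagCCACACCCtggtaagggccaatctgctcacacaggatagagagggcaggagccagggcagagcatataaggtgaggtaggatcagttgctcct
Alas2, chrX:150547267-150547416, plus strand: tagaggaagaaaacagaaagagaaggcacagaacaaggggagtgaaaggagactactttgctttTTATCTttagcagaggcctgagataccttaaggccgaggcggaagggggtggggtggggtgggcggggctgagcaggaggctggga

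Outside the red cell lists, the 10 genes named for lower levels in the poor set, by adjusted p and then in order of p, were Fam220a and Gm10371, which passed the adjusted threshold, and 8 that did not. Ube2l6, an E2 enzyme that joins the ubiquitin-like ISG15 to proteins, stood at 560, 551 and 563 CPM in C2, O2 and O4. In the rich set it stood at 4917, 2841 and 3192 CPM in C1, C4 and C5, at 7465 and 2949 CPM in O1 and O3, and at 2976 CPM in S2. Its log2 fold change was -2.86 (SE 0.41, adjusted p = 0.0579) and passed without O1 at -2.59 (adjusted p = 0.00157). Slc48a1, a heme transporter, ranged from 119 to 132 CPM in the poor and from 337 to 1026 CPM in the rich set, a log2 fold change of -2.16 (SE 0.38, adjusted p = 0.102). Fcgr2b, the inhibitory receptor for immunoglobulin G, ranged from 5.03 to 7.06 CPM and from 12.7 to 24.2 CPM, a log2 fold change of -1.52 (SE 0.27, adjusted p = 0.102). Icosl, the ligand of the costimulatory receptor ICOS, had a log2 fold change of -1.08. The other 4 were Dhrs11 (-3.10), a dehydrogenase, Pttg1 (-2.18), the securin that holds back separase, Fam117a (-1.90) and Ncln (-1.17), a membrane protein of the endoplasmic reticulum. Without O1 all 10 had an adjusted p under 0.05 in edgeR. They were picked by p and by no overlap in the same libraries, so this is not an independent check.

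The 10 genes named for higher levels in the poor set, in order of p, all missed the adjusted threshold and had log2 fold changes from 0.45 to 1.23. Ppia, the abundant peptidyl-prolyl isomerase cyclophilin A, stood at 637, 573 and 1269 CPM in C2, O2 and O4 and ranged from 327 to 529 CPM in the rich set. Its log2 fold change of 1.05 (SE 0.27, adjusted p = 0.179) was 0.61 without O4, where it was highest. Mthfd2l, a mitochondrial enzyme of folate metabolism, ranged from 31.9 to 54.7 CPM in the poor and from 20.2 to 30.9 CPM in the rich set, with a log2 fold change of 0.85 (SE 0.20, adjusted p = 0.142). Fam120aos stood at 0.95 and was the only one of the 10 with an adjusted p under 0.05 without O1 (0.0273). The remaining genes were Gm34276 (1.23), Commd10 (0.67), Phkb (0.57), the regulatory beta subunit of phosphorylase kinase, Nap1l1 (0.53), a histone chaperone, Atp6ap2 (0.48), an accessory protein of the proton pump, Snapin (0.47), a SNARE-associated protein, and Nt5dc1 (0.45).

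The sets drew on the study groups unevenly, with S group in the rich set only. The difference was therefore also taken within C group and within O group. Within C group, C2 was compared with C1, C4 and C5, and within O group, O2 and O4 with O1 and O3. C2 pooled 5 mice and C1, C4 and C5 pooled 10 each, so within C group set and pool size cannot be told apart. Fam220a differed by -2.62 on the log2 scale within C group and by -2.87 within O group, Ube2l6 by -2.66 and -3.07, and Alas2 by -2.76 and -3.20. No overlap between the sets was a condition for naming Fam220a and Ube2l6, and Alas2, a red cell marker, did not overlap either, so the direction within each group follows from the sets, and the sizes are a description. C2 was the only poor library of C group, so a test of the interaction of set and group had to take its spread from the other libraries. It gave 0 of 13677 genes at an adjusted p under 0.05 in edgeR and 238 at an unadjusted p under 0.05, and with an arm of 1 library this does not show that the groups were alike.

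Platelet genes had mostly positive log2 fold changes and did not pass the test. The median was 0.33 over 26 receptors, 0.40 over 24 genes of granule cargo, 0.33 over 21 of the cytoskeleton and 0.37 over 26 of signalling (0.43, 0.41, 0.51 and 0.33 without O1). Of these 97 genes 86 had a positive value, where 6712 of all 13309 genes had a negative one, and 6 were higher at an unadjusted p under 0.05, beside 1.38% of all genes, while 0 had an adjusted p under 0.05 in edgeR, with and without O1. The only one whose sets did not overlap was Ctla2a, named after its values were seen, a share near the 0.872% of all genes. Ppbp, a chemokine precursor of platelet granules, stood at 8949, 8414 and 13490 CPM in C2, O2 and O4. In the rich set it ranged from 4330 CPM in O3 to 9585 CPM in C1, which was above both C2 and O2. Its log2 fold change was 0.71 (SE 0.32, adjusted p = 0.533). Pf4, platelet factor 4, stood at 0.64 (SE 0.44), and Itga2b, the alpha chain of the fibrinogen receptor, at 0.33 (SE 0.38). Tmsb4x, the actin-binding thymosin beta 4, was the most abundant gene of the 4 lists and ranged from 56195 to 60617 CPM in the poor and from 28622 to 61643 CPM in the rich set, where C1 alone reached the poor range. Of the others named by rank, Nrgn stood at 0.41, Gng11, a G protein gamma subunit, at 0.55, Rgs18, a regulator of G protein signalling, at 0.79, Cd226, an adhesion receptor, at 0.74, and App and Adra2a at -0.51 and -1.59, the last of which was 0.22 without O1. Gp1bb, a chain of the von Willebrand factor receptor, stood under 3.5 CPM in all 9 libraries.

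Monocyte genes were mostly lower in the poor set. Of 17 tested, 14 had an unadjusted p under 0.05 and were lower, beside 7.81% of all genes, 8 did not overlap, beside 4.98%, and the median log2 fold change was -1.10 (-0.96 without O1). None passed the adjusted threshold in edgeR with O1, and 3 did without, beside 1.70% of all genes. Csf1r, the receptor for macrophage colony-stimulating factor, stood at 11.5, 18.7 and 7.93 CPM in C2, O2 and O4 and from 24.6 to 51.6 CPM in the rich set. Its log2 fold change was -1.53 (SE 0.30, adjusted p = 0.109). Cx3cr1, the fractalkine receptor, stood at -1.47 (SE 0.29), Ccr2, a chemokine receptor of inflammatory monocytes, at -1.02 (SE 0.30) and Ly6c2 at -0.57 (SE 0.25). F10, coagulation factor X, had the highest value at 0.27 (1.19 without O1). It was also the most abundant gene of the list, and its highest levels were in O4 (202 CPM) and O1 (282 CPM), 1 library of each set.

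B cell and T cell genes had lower members as well. Of 20 B cell genes 7 were lower at an unadjusted p under 0.05, beside 7.81% of all genes, 2 did not overlap, beside 4.98%, and the median was -0.46 (-0.61 without O1). None passed the adjusted threshold in edgeR with O1, and 5 did without, beside 1.70% of all genes. Cd79a, a signalling chain of the B cell receptor, stood at 115, 74.0 and 67.3 CPM in C2, O2 and O4 and from 79.2 to 164 CPM in the rich set, where O1 was lowest. Cd79a, Cd79b and Ms4a1 stood at -0.61, -0.46 and -0.57, and for these 3 the sets overlapped. Pax5, the B cell transcription factor, was the highest at 0.28. Of 20 T cell genes 6 were lower at an unadjusted p under 0.05, beside 7.81% of all genes, and the median was -0.22 (-0.36 without O1). Cd3e, a chain of the T cell receptor complex, stood at -1.31 (SE 0.41) at levels of 1.72 to 13.5 CPM, while Cd3d stood at -0.05 (SE 0.24) and Lat, an adaptor that platelets also use, at 0.47. Of 15 NK cell genes 2 were lower at that threshold, a share near the 7.81% of all genes, among them Prf1, the pore-forming perforin, at 1.62 to 2.09 CPM in the poor and 2.75 to 9.94 CPM in the rich set, and the median was -0.14 (-0.31 without O1).

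Neutrophil genes and genes of dividing cells rested on O1. Of 15 neutrophil genes all 15 had a negative log2 fold change with a median of -1.92, which shrank to -0.23 without O1. S100a8 went from -1.23 (SE 1.01) to 0.31 and S100a9 from -0.87 (SE 0.93) to 0.43. Ltf, lactoferrin, the lowest of the list, stood at 69.7 CPM in O1 and from 0.558 to 5.51 CPM in the other 8 libraries. Of 24 mitotic genes the median went from -0.63 to 0.15 and Mki67 from -3.25 to -0.10. Ube2c, the E2 enzyme of the anaphase-promoting complex and the most abundant of the list, stood apart from Mki67, at -2.93 with O1 and -2.30 without (adjusted p = 0.00346), and ranged from 18.4 to 33.0 CPM in the poor and from 84.7 to 534 CPM in the rich libraries. Nusap1, which binds spindle microtubules and is named after its values were seen, was the other mitotic gene that passed without O1, at -2.14 (adjusted p = 0.00737). These were 2 of 24 genes, beside 1.70% of all genes. With O1, 8.33% of the mitotic genes were lower at an unadjusted p under 0.05, beside 7.81% of all genes. The share lower without overlap was also 8.33%, beside 4.98%.

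The summed levels of the lists weigh abundant genes most, so they describe the lists and not the numbers of cells. Lat, which platelets also use, was the most abundant T cell gene, and F10 the most abundant monocyte gene. The 20 B cell genes summed to 2437 to 3272 CPM in the poor set, 3573 to 3978 CPM in the rich set without O1, and 1840 CPM in O1 (here TMM over all 15 platelet libraries). The 20 T cell genes summed to 845 to 947 CPM in the poor and 775 to 916 CPM in the rich set, the neutrophil genes to 292 to 808 and 228 to 4549 CPM, and the monocyte genes to 245 to 382 and 320 to 688 CPM. The part of these cells in the other differences was not tested. Of the melanocyte markers, Pmel stayed under 3 CPM and Tyr, Dct and Mlana had at most 2, 4 and 1 counts in any of the 9 libraries.

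**Figure D4:**
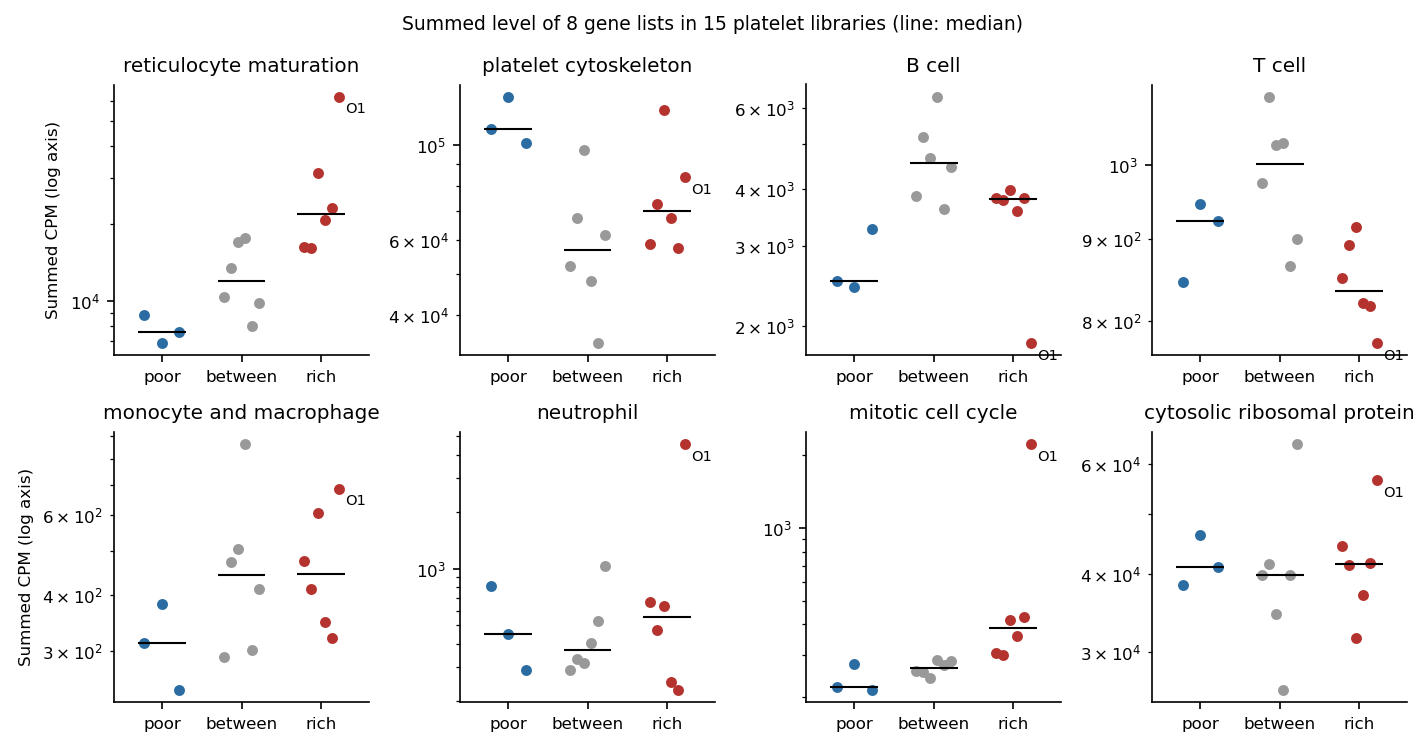
Summed level (CPM, log axis, TMM over 15 libraries) of 8 gene lists in the 3 poor, 6 between and 6 rich platelet libraries, in order of globin share within each set, with a line at the median and O1 marked. Reticulocyte genes rise from poor to rich without overlap between those sets, the median of the B cell genes is highest in the libraries between, and O1 is above all others for neutrophil and mitotic genes.

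Lists of the cell's own machinery held members at both ends. Of 23 interferon response genes 6 were lower at an unadjusted p under 0.05, where 7.81% of all genes were, with a median of -0.07 (-0.22 without O1). They included Rsad2, the antiviral enzyme viperin, at 103, 157 and 219 CPM in C2, O2 and O4 and 533 to 3007 CPM in the rich set, a log2 fold change of -2.92 (SE 0.62, adjusted p = 0.113, and 0.00737 without O1), while Ifit2 was the highest of the list at 0.77. Of 28 lysosomal genes 9 did not overlap and were lower, beside 4.98% of all genes, with a median of -0.42 (-0.28 without O1), led by the protease gene Ctsb at -2.37 (-1.55 without O1), while Ctsd, the most abundant, stood at 0.43 and Lamp2 at 0.56. Of 18 genes of MHC class I 6 were lower at an unadjusted p under 0.05, beside 7.81% of all genes, and 5 passed the adjusted threshold in edgeR without O1, beside 1.70% of all genes. The median was -0.15 (-0.087 without O1), with H2-Q7, whose reads may be shared with other H2-Q genes, at -1.57, whereas B2m, the invariant light chain, was higher in all 3 poor libraries (12556 to 16990 CPM against 4249 to 12312 CPM, log2 fold change 0.73, SE 0.34, adjusted p = 0.567). Malat1, a nuclear noncoding RNA, ranged from 12.8 to 40.4 CPM in the poor and from 71.2 to 285 CPM in the rich set, a log2 fold change of -2.23 (SE 0.50, adjusted p = 0.134, and 0.0186 without O1).

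Bpgm was the lowest of the 19 glycolysis genes, whose median was 0.22 (0.31 without O1), and Slc2a3, a glucose transporter, was the highest at 0.46. Of 13 genes of iron handling, 4 were lower at an unadjusted p under 0.05, beside 7.81% of all genes, 3 did not overlap, beside 4.98%, and the median turned from -0.15 to 0.072 without O1. Blvrb, which reduces biliverdin and is abundant in red cells, stood at -2.52 (-1.33 without O1) and the ferritin heavy chain gene Fth1 at 0.57. Ubb, a polyubiquitin gene, stood at 2013 to 2326 CPM in the poor and 2930 to 7063 CPM in the rich set (log2 fold change -0.99, SE 0.35), and was the only one of 42 genes of ubiquitin and the proteasome whose sets did not overlap, beside 4.98% of all genes that were lower in this way (median -0.032, and 0.12 without O1). The 81 cytosolic ribosomal protein genes had a median of 0.00 (0.05 without O1) and 0 with an unadjusted p under 0.05. The 78 nuclear genes of oxidative phosphorylation had a median of -0.09, which turned to 0.25 without O1, and the 38 histone genes had a median of 0.21 with and without O1. The 12 mitochondrially encoded protein genes had a median of 0.17 (0.37 without O1), with mt-Nd3 at 0.83 and mt-Co3 at -0.39.

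**Figure D5:**
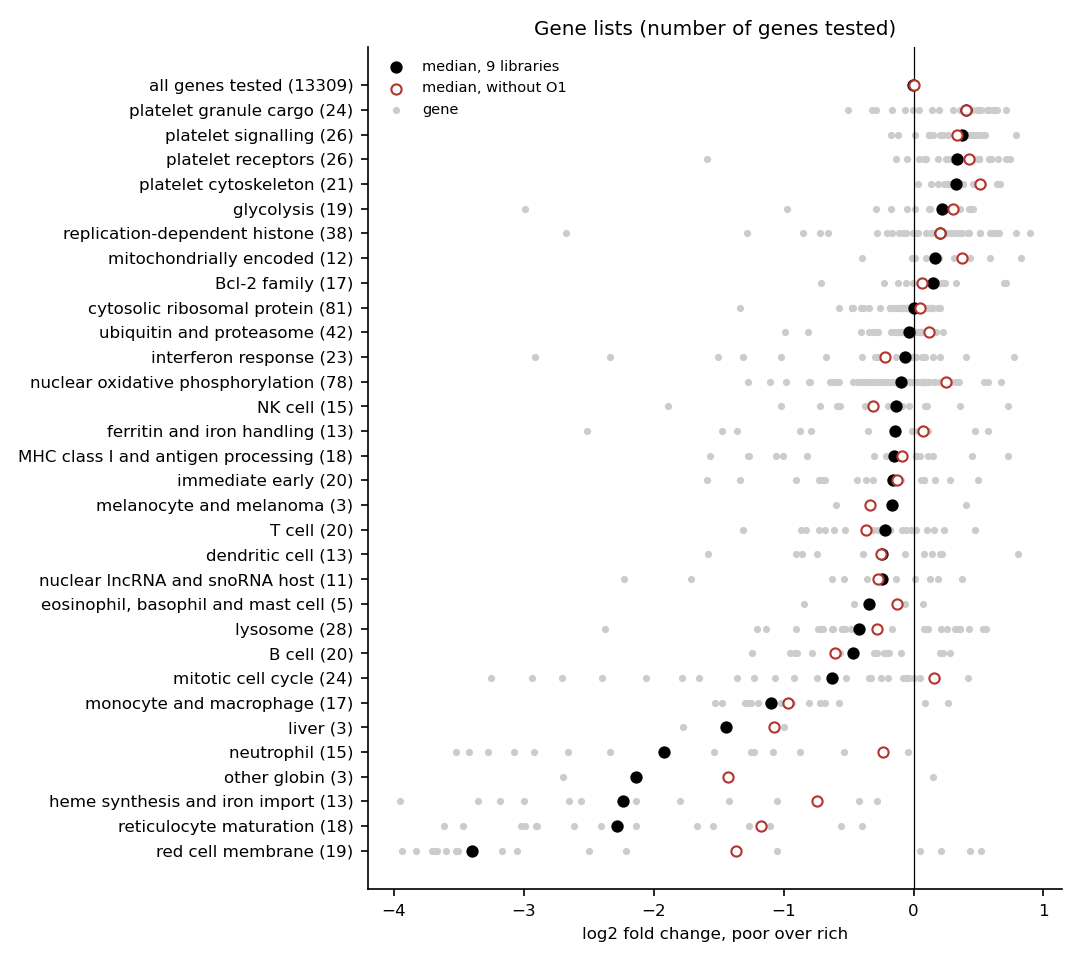
The log2 fold change, poor over rich, of each gene (grey) and its median (black, 9 libraries; open red, without O1) for the gene lists with at least 3 genes tested, with the number of genes in brackets. The red cell lists lie at medians of -2.13 to -3.40 with O1 and the platelet lists at 0.33 to 0.40.

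The counts outside globin ranged from 18806181 to 22201648 in the poor and from 8202021 to 19703000 in the rich set, and part of that gap is the globin count itself, so nothing is read from it. Of the other measures of the whole library none passed an adjusted p under 0.05 in an exact two-sided permutation test, adjusted over 4 measures, where 3 against 6 libraries cannot go below 0.0238. The share of those counts on all mitochondrially encoded genes, most of it ribosomal RNA, was 17.4% ± 3.15 (SD, n = 3) and 13.2% ± 2.42 (SD, n = 6), exact permutation p of 0.0952 (adjusted 0.190). The number of genes with a count was 18223 ± 425 (SD, n = 3) and 18222 ± 887 (SD, n = 6), exact permutation p of 0.976. The pools held 4 and 8 mice on average, exact permutation p of 0.167 (adjusted 0.222). Leaving out any 1 library left the p of these measures above 0.05.

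For red cell genes and the 10 named lower genes, the 6 libraries left out did not follow the globin share among themselves. Their median lay between those of the poor and the rich set for 37 of 53 red cell genes, for 7 of the 10 named genes that were lower and for 4 of the 10 that were higher, beside 30.8% of all genes, which is a description only, since these genes were chosen for a wide gap between the sets or with the globin share. Within the 6, the level rose with the globin share for 19 of the 53 red cell genes (35.8%) and fell for 34, beside 51.3% of all genes that rose. Of the 637 genes outside the red cell lists that were lower in all poor libraries, 215 rose (33.8%). Of the 10 named genes that were lower 1 rose and 9 fell, and of the 10 that were higher 5 rose and 5 fell. Alas2 stood at 5239, 7773, 9569, 9989, 4266 and 4568 CPM in S4, S1, S3, S5, O5 and C3, in order of globin share, so that the pair with the highest share, O5 and C3, had the lowest levels. These slopes are over 6 libraries that differ in group and depth and carry no test.

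B cell genes in the libraries between were not intermediate. Their sum was 3616 to 6352 CPM, above every poor and, by the median, above the rich libraries (medians 4562 and 3792 CPM). Csf1r reached 93.5 CPM in S5, its highest level in the 15 libraries. The platelet cytoskeleton genes summed to 34481 to 97000 CPM in the 6 libraries, 100771 to 129361 CPM in the poor and 57365 to 120464 CPM in the rich set.

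The PBMC libraries of the same labels did not repeat the order of the platelet libraries in O group. The globin share was 18.2% in PBMC O2 and 19.2% in PBMC O4, whose platelet libraries were the poorest of all, and 24.5% in PBMC O1. The 5 PBMC libraries of O group ranged from 6.52% to 24.5%, those of C group from 3.29% to 9.39% and those of S group from 3.23% to 8.62%. The labels give 4, 3 and 3 mice for O2, O4 and O1 in both tissues, but do not say that the mice were the same. The paper describes preparing PBMCs from the blood that remained after platelets were spun off. It gives the O group pools the same sizes in both tissues, without stating pool by pool that the mice were shared. Over the 15 PBMC libraries 52 of 53 red cell genes rose with the globin share, beside 19.5% of all genes tested, and 7 of the 10 named genes that were lower in poor platelets did. Among the 10 that were higher, 1 did. The highest PBMC shares, from 15.1% up, were all in O group. The slopes took no account of group, so share and group cannot be told apart in them. The PBMC levels were scaled to the total without globin and without TMM factors, and the slopes carry no test.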

How the data were processed

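Platelet and PBMC RNA was sequenced as 5 libraries per group and tissue. Reads were cleaned, aligned with HISAT2 2.0.5 and counted per gene with featureCounts 1.5.0-p3 by the authors, and the deposited values are raw counts of 54532 Ensembl genes without normalization (versions from the submitters' processing notes). Those notes name mm9, but 650 of 671 gene positions in the study's tables equal GRCm38 (GENCODE M21), whose positions are used. Libraries were matched to samples by title.

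The 4 globin genes were removed before library sizes were summed. Genes were filtered with filterByExpr, scaled with TMM and tested with edgeR 4.0.16 (quasi-likelihood, R 4.3.3), with limma 3.58.1 and DESeq2 1.42.0 for alternatives. The SE is the log2 fold change divided by the square root of F. Adjusted p-values are Benjamini-Hochberg over all genes tested. Slopes used log2(CPM + 0.5) on log2 globin share. The method was tested on simulated data.

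The libraries and gene lists were chosen with earlier results of these data known. Named genes were, in each direction, the 10 with the largest change among those with an adjusted p under 0.05, no overlap and a mean of at least 10 CPM, filled in order of p, outside red cell lists, pseudogenes and immunoglobulin segments; cell type markers; and the lowest, highest and most abundant gene of each list.

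Medians of lists not given in the report, with and without O1, were -0.24 and -0.25 (dendritic cell), -0.35 and -0.13 (eosinophil, basophil and mast cell), -0.15 and -0.13 (immediate early), -0.24 and -0.27 (nuclear noncoding RNA), 0.15 and 0.063 (Bcl-2 family), -0.17 and -0.33 (melanocyte, 3 genes), -1.44 and -1.07 (liver, 3 genes) and -0.095 and -0.19 (1 keratinocyte gene). Of the 3 liver genes 1 was lower at an unadjusted p under 0.05, beside 7.81% of all genes. Replicates are pools of mice. Some marker genes are not reported here.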

Additional observations from a re-analysis of the deposited data

Results flagged for a closer look

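Among the 6 rich libraries, and for the globin share also among the 5 of each group and tissue, a library was singled out where its gap to the nearest other library, divided by the range, passed Dixon's 95% value, which chance passes in about 1 of 20 groups. This held for 18 of 61 groups checked, and O1 was the library in 13 of them. The globin share sorted the rich libraries, so the 1 of 20 does not hold for it and its flag is a description. Alas2, Slc4a1 and Klf1 are red cell genes, so their flags are not independent of that share. O1 was highest for the globin share (39.0%), Alas2 (33986 CPM), Slc4a1 (7441 CPM), Klf1 (25.9 CPM), a transcription factor of red cell precursors, Pttg1 (224 CPM), S100a8 (1400 CPM), S100a9 (1470 CPM), Cxcr2 (109 CPM), Csf3r (331 CPM) and Gp1bb (3.47 CPM). It was lowest for Snapin (17.8 CPM), Cd79b (45.3 CPM) and Cd3d (10.3 CPM). C1 was highest for the count outside globin (19703000), Tubb1 (3812 CPM), Clec1b (2432 CPM), Cd3e (13.5 CPM) and Cx3cr1 (16.8 CPM).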

How the results depend on the processing

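The number of genes with an adjusted p under 0.05 (3, all lower in poor) was 3 with RLE size factors and with globin kept in the library sizes. It was 399 with DESeq2 (383 lower, 16 higher), 76 with all genes that had a count (76 lower, 0 higher), 318 with voom and quality weights (278 lower, 40 higher), 338 over 15 libraries against log2 globin share (324 lower, 14 higher), and 0 with the study's group as a covariate, 0 without the S library in that fit, and 0 with a replicate block. It ranged from 0 to 240 (lower from 0 to 234, higher from 0 to 6) as each library was left out. The numbers at an unadjusted p under 0.05, 1040 lower and 184 higher, moved to 461 lower with the block, 1591 lower and 667 higher over 15 libraries, 387 higher with all genes, and 943 higher with voom, and ranged from 719 to 1204 lower and from 88 to 589 higher as libraries were left out. Same-numbered libraries share a number only: their deviations from group means correlated from -0.172 to 0.370, with not every pair over 0.1. Without single libraries the genes without overlap ranged from 710 to 1103 lower and from 175 to 457 higher, which fewer libraries allow. The cause of the other moves was not tested.

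Signs turned for genes that had no adjusted p under 0.05 in any setting. With group, without S and over 15 libraries, Gp1bb stood at -0.34, -0.37 and -0.091, Cd3d at 0.081, 0.091 and 0.046, and Nkg7 at 0.21, 0.22 and 0.094. Klrb1c stood at 0.059 over 15 libraries, Lck at -0.10 with the block, Cxcr2 at 0.069 with voom, and Csf3r at 0.13 with the block and 0.20 with voom. With the block and voom, S100a8 stood at 0.55 and 0.26 and S100a9 at 0.68 and 0.43. As each library was left out, Gp1bb ranged from -0.74 to 0.88, Cd3d from -0.18 to 0.020, Lck from -0.012 to 0.18, Ncr1 from -0.29 to 0.077, Klrb1c from -0.31 to 0.063, Nkg7 from -0.23 to 0.12, S100a8 from -1.77 to 0.31 and S100a9 from -1.42 to 0.43. The difference in the count outside globin ranged from 6942630 to 9567550, and that in genes with a count, 1 gene, from -307 to 216. With 3 poor libraries, each pooled from few mice, the counts of calls rest on single libraries.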

Other observations

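The genes named here were chosen after their values were seen. Gstt1, a glutathione transferase, stood at 3668 CPM in platelet O4, a poor library, and at 3499 CPM in O1, a rich one, and from 3.51 to 39.3 CPM in the other 13 platelet libraries (TMM over 15 libraries). Prrt4 stood at 306 and 457 CPM in the same pair and at most at 1.09 CPM elsewhere, and Gm6093 at 69.6 and 94.0 CPM and at most at 2.87 CPM. In PBMCs, scaled to the total without globin, Gstt1 stood at 254 CPM in O4 and 436 CPM in O1 and at most at 4.21 CPM in the other 13 libraries. The pair were the 2 pools of 3 mice in the series, in both tissues. With O1 left out, Gstt1, Prrt4 and Gm6093 were 3 of the 6 genes higher in the poor set (log2 fold changes 6.15, 7.81 and 6.75), and of the poor libraries only O4 held them at a high level.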
